A study of Mus musculus with 7 samples.

Results

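The transcription factors described here are 8 DNA-binding proteins of the hair lineage, namely Hoxc13, Msx2, Dlx3, Foxn1, Lef1, Gata3, Trps1 and Cux1. They were chosen by name, and each symbol was matched to 1 transcript in a table of ribosome footprint counts, so the set holds 8 of the 13047 gene symbols in that table. Of the 8, 7 were listed in all 4 ribosome profiling libraries and were tested, and Lef1 was listed in only 1 library and was not tested.

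Ribosome profiling sequences the short stretch of mRNA that a ribosome protects from nuclease, so the number of footprints on a coding sequence rises with both the amount of the mRNA and the number of ribosomes on it. The libraries came from mouse epidermis, described in the labels as a primary cell type, and were depleted of ribosomal RNA. There were 2 wild-type libraries and 2 libraries with a transgenic knockout of Pelota (Pelo), the factor that splits ribosomes stalled at the end of an mRNA or in its 3′ UTR. RNA-seq libraries of the same genotypes were labelled in the series and were not used here, so a change in mRNA and a change in ribosomes per mRNA cannot be told apart in any value below. The sources used here do not give the driver of the deletion, the age of the animals, or whether a replicate is an animal, a culture or a repeat library. The p-values therefore reflect only how far these libraries differed, which may be technical.

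A hair follicle builds its shaft in a bulb of dividing matrix cells that sit on the dermal papilla. As matrix cells move up they commit to concentric layers, and those of the cortex and cuticle switch on the hair keratins and the keratin-associated proteins while the inner root sheath makes trichohyalin and its own keratins. Wnt signals, through LEF1 and beta-catenin, and BMP signals, through MSX2, DLX3, FOXN1 and GATA3, drive this commitment, and HOXC13 binds the promoters of hair keratin genes directly.

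Each library held 4204470 to 5258424 coding footprints, and the median listed transcript had 91 to 113 of them. The table lists a transcript in a library only above a density of 0.01 footprints per nucleotide. Pelo itself was counted at 24 and 21 in the knockout libraries and at 101 and 61 in the wild-type libraries, a fall of 1.65 on the log2 scale (SE 0.245; edgeR quasi-likelihood test, Benjamini-Hochberg adjusted p = 0.000799). Of the 10873 genes tested, 2173 were higher and 2084 were lower in the knockout at an adjusted p under 0.05, and scaling by library totals alone gave 1495 higher and 2997 lower, since it moved the median log2 change of all genes from −0.02 to −0.20. Keratinocyte markers, with 8 of 13 tested higher and 2 lower, summed to 9.11% and 8.50% of coding footprints in the knockout and to 4.15% and 4.02% in the wild type. Dermal fibroblast markers, with 2 of 15 higher and 8 lower, summed to 4.70% and 5.23% in the knockout and to 9.09% and 13.4% in the wild type, so the libraries held dermal as well as epidermal transcripts. These sums weigh abundant genes most, and Krt15 (log2 change −1.72) and Col17a1 (−0.48) among the keratinocyte markers and Postn (1.32) and Col6a3 (0.64) among the fibroblast markers went against them.

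Among the factors made in the matrix, Hoxc13, Msx2, Dlx3 and Foxn1 had higher TMM-scaled footprint values in both knockout libraries than in either wild-type library. The change passed the test for Hoxc13, Msx2 and Dlx3. Cux1 and Lef1 are also made in the matrix, and Cux1 did not rise while Lef1 was not tested. Gata3, the inner root sheath factor, fell 2.53-fold. The changes of Trps1 and Cux1 did not pass the test, and their genotypes overlapped. In numbers, 3 of the 7 tested factors were called higher, against 20% of all genes tested, and 1 was called lower, against 19.2%. Both knockout libraries lay above both wild-type libraries for 4 of the 7, against 35.4% of all genes, and below them for 1, against 36.5%. The median log2 change of the 7 was 0.70, beside −0.02 for all genes tested.

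**Figure D1:**
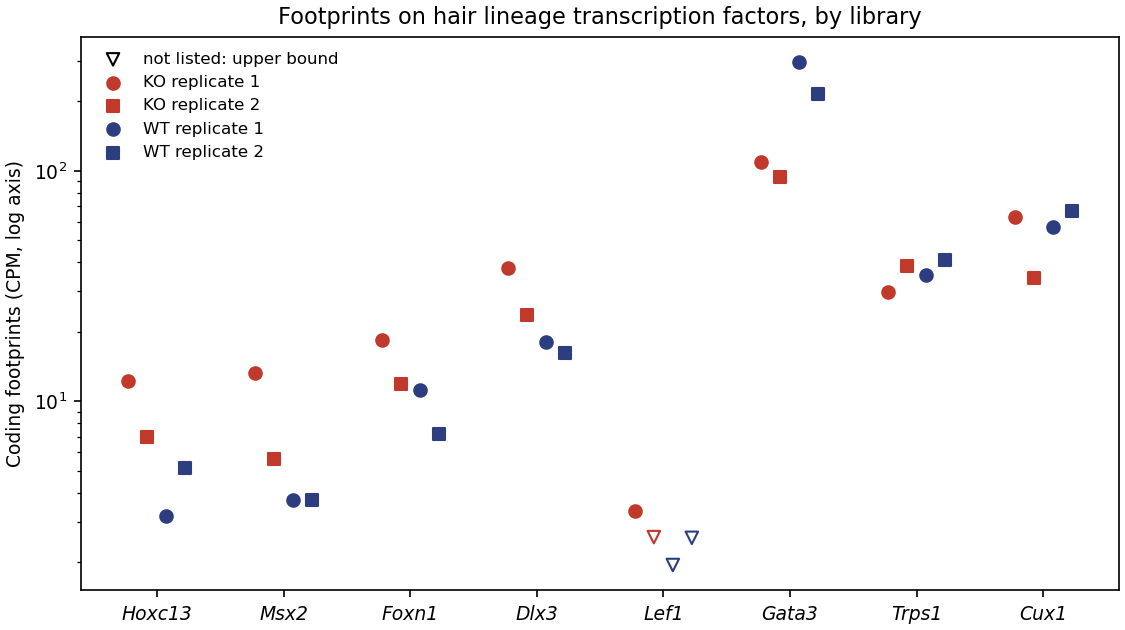
Coding footprints of each factor, as library-scaled counts (CPM, scaled by TMM), on a log axis; circles are replicate 1 and squares replicate 2, red for knockout (KO) and blue for wild type (WT), and open triangles mark the upper bound of Lef1 where it was not listed. Both red points lie above both blue points for Hoxc13, Msx2, Foxn1 and Dlx3, both lie below for Gata3, and the colours overlap for Trps1 and Cux1.

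Hoxc13 encodes a homeodomain protein of the matrix and the early cortex and cuticle, and mice that lack it grow brittle hair. It was counted at 55 and 30 footprints in the knockout and at 18 and 22 in the wild type over a coding sequence of 927 nt. In CPM scaled by the trimmed mean of M-values (TMM), these counts were 12.2 and 7.01 against 3.18 and 5.10, or 9.60 ± 3.67 against 4.14 ± 1.36 (SD, n = 2 each). Both knockout libraries were above both wild-type libraries, with knockout replicate 1 the highest. The log2 change was 1.25 (SE 0.355, 95% interval 0.45 to 2.05), with an edgeR adjusted p of 0.0207. Without knockout replicate 1 it was 0.79 (edgeR adjusted p = 0.137) and without wild-type replicate 1 it was 0.91 (edgeR adjusted p = 0.124), so the call was lost without either library. In every fit with 1 library left out, 1 genotype has a single library, which is assumed to vary like the pair of the other genotype.

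Msx2 encodes a homeodomain repressor that BMP signals induce in the matrix, where it acts upstream of Foxn1. Its counts were 60 and 24 in the knockout and 21 and 16 in the wild type over 744 nt, or 13.3 and 5.61 CPM against 3.71 and 3.71 CPM. Knockout replicate 1 stood 2.37-fold above knockout replicate 2, while the wild-type libraries differed little, at 3.71 ± 0.000832 CPM (SD, n = 2). That SD is far below counting error. The exact 95% Poisson intervals of the wild-type counts were 13.0 to 32.1 and 9.15 to 26.0. The log2 change was 1.35 (SE 0.410, 95% interval 0.43 to 2.27), with an edgeR adjusted p of 0.0270. Without knockout replicate 1 the log2 change was 0.59 (edgeR adjusted p = 0.292). Leaving out wild-type replicate 1 or wild-type replicate 2 kept the size, at 1.35 and 1.36, and gave edgeR adjusted p-values of 0.0843 and 0.0628.

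Dlx3 encodes a homeodomain activator of the matrix, shaft and inner root sheath that is also made in the upper layers of the epidermis. It was the most footprinted of the rising factors, with counts of 170 and 101 in the knockout and 102 and 70 in the wild type over 804 nt. These were 37.7 and 23.6 CPM in the knockout and 18.03 and 16.2 CPM in the wild type, without overlap. The log2 change was 0.84 (SE 0.226, 95% interval 0.33 to 1.35), a 1.78-fold rise, with an edgeR adjusted p of 0.0168. It was 0.46 without knockout replicate 1 (edgeR adjusted p = 0.129) and 0.77 without wild-type replicate 2 (edgeR adjusted p = 0.0548).

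Foxn1, the winged-helix factor missing in nude mice, acts in matrix cells and in the first suprabasal keratinocytes and is needed for hair keratin production. Its counts were 83 and 51 in the knockout and 63 and 31 in the wild type over 1887 nt, or 18.4 and 11.9 CPM against 11.1 and 7.19 CPM. The lower knockout value and the higher wild-type value nearly touched. The log2 change of 0.70 (SE 0.286, 95% interval 0.06 to 1.35) did not pass the test, with an edgeR adjusted p of 0.0792. Other settings did call it: without knockout replicate 2 it was 0.98 (edgeR adjusted p = 0.00763), without wild-type replicate 1 it was 1.07 (edgeR adjusted p = 0.0445), and with the replicate number as a block it was 0.72 (edgeR adjusted p = 0.0245). The replicate numbers did not pair the libraries in these data.

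Lef1 encodes the HMG-box protein that carries beta-catenin to Wnt target genes, and it is made in the matrix and the cells that become the cortex. It was listed only in knockout replicate 1, with 15 coding footprints (exact 95% Poisson interval 8.40 to 24.7), or 3.33 CPM. In the other 3 libraries its 1134 nt coding sequence held at most 11 footprints, which is at most 2.57 CPM in knockout replicate 2 and at most 1.94 and 2.55 CPM in the wild type. The highest of these bounds lies inside the interval of the single listed count, so no difference between the genotypes was detectable at this depth. With the unlisted counts set to that bound, the log2 change was 0.43 (edgeR adjusted p = 0.413).

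Gata3 encodes a zinc-finger factor that directs matrix cells to the inner root sheath, and it is also made in interfollicular keratinocytes, T cells and innate lymphoid cells. It was counted at 491 and 403 in the knockout and at 1680 and 933 in the wild type over 1272 nt. These were 109 and 94.1 CPM against 297 and 216 CPM, or 101 ± 10.4 against 257 ± 57.0 CPM (SD, n = 2 each). Both knockout libraries lay far below both wild-type libraries. The log2 change was −1.34 (SE 0.163, 95% interval −1.71 to −0.97), with an edgeR adjusted p of 0.000244. It ranged from −1.54 to −1.10 when each library was left out in turn, and it was called lower in all 12 alternative settings run.

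Several T cell markers moved the same way as Gata3. Of 14 tested, 6 fell, against 19.2% of all genes, and 8 were not called, with a median log2 change of −0.77, and they summed to 0.0407% and 0.0441% of coding footprints in the knockout and to 0.0724% and 0.0660% in the wild type. The falls were led by Cd7 (log2 change −2.62), a T cell surface protein, by Cd3e (−2.57) and Cd3g (−2.48), chains of the T cell receptor complex, and by Nkg7 (−1.91), a granule protein of cytotoxic cells. Cd3e was still listed in the knockout, at 20 and 18 counts against 174 and 88, while Cd247 was among the markers listed only in the wild type. Given the bound of 5 counts, Cd247 was at least 1.88-fold lower in the knockout. Markers that were not called included Thy1 (−0.04), Il7r (0.52) and Gzmb (0.71), and Il7r and Gzmb lay higher in both knockout libraries. Innate lymphoid markers summed to 0.00972% and 0.0110% in the knockout and to 0.0120% and 0.01001% in the wild type. Most of these footprints were on Rora, at 381 and 391 counts in the knockout and 571 and 386 in the wild type. Of the 3 tested, Rora (−0.12) was not called, and Icos (1.46) and Areg (1.61) rose. The part of these cells in the fall of Gata3 was not tested, and in bulk libraries fewer cells of a type and less RNA per cell cannot be told apart.

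Trps1, an atypical GATA-type repressor of the follicle epithelium and its mesenchyme, was counted at 134 and 166 in the knockout and at 199 and 176 in the wild type over 3786 nt. Its CPM values of 29.7 and 38.8 overlapped those of the wild type, 35.2 and 40.8. The log2 change was −0.15 (SE 0.167, 95% interval −0.52 to 0.23; edgeR adjusted p = 0.520), and it turned to 0.04 without knockout replicate 1. The interval leaves room for a modest fall or a small rise.

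Cux1, a cut-homeodomain factor of the inner root sheath and matrix, was counted at 284 and 147 in the knockout and at 324 and 288 in the wild type over 4782 nt, or 63.0 and 34.3 CPM against 57.3 and 66.8 CPM. Knockout replicate 1 lay between the wild-type libraries and knockout replicate 2 lay well below them. The log2 change was −0.34 (SE 0.235, 95% interval −0.87 to 0.18; edgeR adjusted p = 0.276). It turned to 0.03 without knockout replicate 2, and it was −0.85 and called lower without knockout replicate 1 (edgeR adjusted p = 0.000759). The Cux1 locus also encodes the Golgi protein CASP from shared 5′ exons, and footprints on those exons cannot be assigned to one protein.

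**Figure D2:**
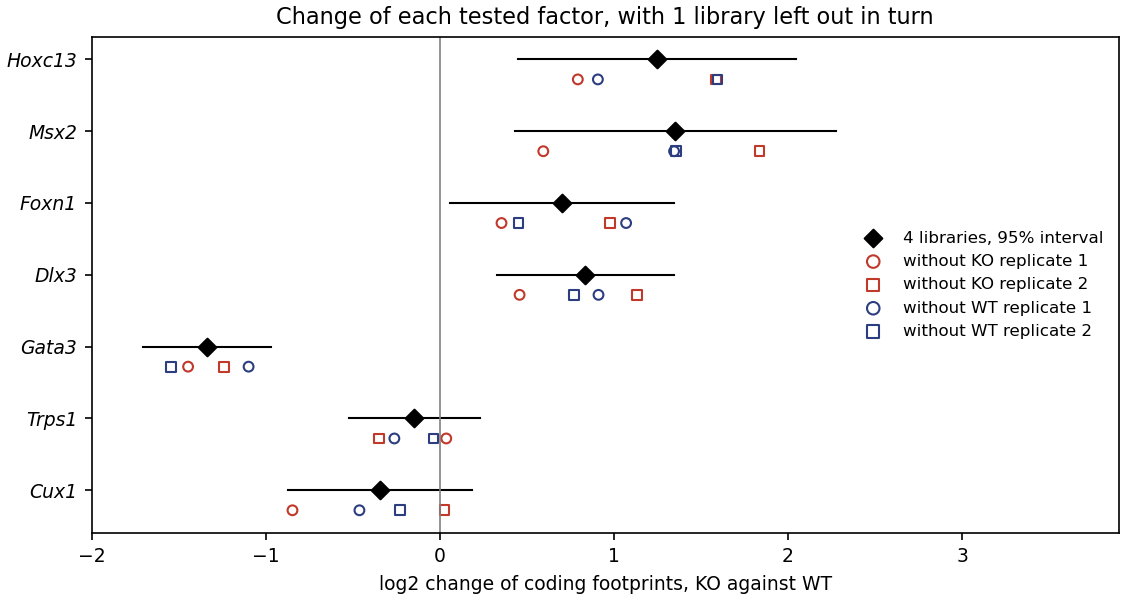
Log2 change of coding footprints, knockout against wild type, for the 7 tested factors; diamonds are the fit on 4 libraries with 95% intervals, and open symbols below each are the fits without 1 library. Gata3 stays between −1.54 and −1.10, Hoxc13, Msx2, Foxn1 and Dlx3 stay above 0 and are smallest without knockout replicate 1, and Trps1 and Cux1 cross 0.

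The higher calls for Hoxc13, Msx2 and Dlx3 depended on single libraries, on knockout replicate 1 most of all. That library was the higher of the 2 knockouts in CPM for 6 of the 7 tested factors, all but Trps1, beside 51.0% of all genes tested. Without it edgeR called no factor higher, by adjusted p or at an unadjusted p under 0.05, and Gata3 and Cux1 were called lower. Without knockout replicate 2, Hoxc13, Msx2, Dlx3 and Foxn1 were all called higher. The wild-type libraries mattered as well: without wild-type replicate 1 the higher calls were Dlx3 and Foxn1, and without wild-type replicate 2 the only one was Hoxc13. DESeq2 called Dlx3 and Msx2 higher, with Hoxc13 at an adjusted p of 0.0624. No factor was called higher when transcripts unlisted in a library entered the fit at 0, where 3 had an unadjusted p under 0.05.

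Levels can be compared between the factors only per length. In the wild type Gata3 stood highest, at 202 ± 44.8 CPM per kb of coding sequence (SD, n = 2), followed by Dlx3 at 21.3 ± 1.58, Cux1 at 13.0 ± 1.41 and Trps1 at 10.04 ± 1.05. Msx2 at 4.99 ± 0.00112, Foxn1 at 4.86 ± 1.48 and Hoxc13 at 4.47 ± 1.47 CPM per kb were the lowest tested and did not differ beyond their spread. The SD of Msx2 there is far below its counting error. In the knockout Gata3 was still first at 79.8 ± 8.18 CPM per kb and Dlx3 second at 38.1 ± 12.4. Msx2 at 12.7 ± 7.31, Hoxc13 at 10.4 ± 3.96, Cux1 at 10.2 ± 4.23, Trps1 at 9.04 ± 1.69 and Foxn1 at 8.03 ± 2.43 CPM per kb followed, with spreads that overlapped. Lef1 was below all of them, at 2.93 CPM per kb in knockout replicate 1 and at most 2.27 elsewhere.

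Footprints upstream of the start codon set Gata3 apart in count. Its 5′ UTR of 585 nt held 102 and 39 footprints in the knockout and 69 and 55 in the wild type, which were 22.6 and 9.11 CPM against 12.2 and 12.8 CPM and so overlapped. As a share of 5′ UTR plus coding footprints, this was 17.2% in knockout replicate 1 (exact Clopper-Pearson 95% interval 14.2 to 20.5) and 8.82% in knockout replicate 2 (6.35 to 11.9). In the wild type it was 3.95% (3.08 to 4.97) and 5.57% (4.22 to 7.18). Both knockout shares were above both wild-type shares, but the intervals of knockout replicate 2 and wild-type replicate 2 overlapped. Over all genes the share was 1.51% and 1.75% in the knockout and 1.11% and 1.02% in the wild type. Among genes with at least 100 such footprints, Gata3 ranked at the 97.8 and 91.8 percentile in the knockout and at 86.0 and 92.3 in the wild type. These intervals cover counting error only, and no test was run on UTR counts.

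Other factors had few UTR footprints. In knockout replicate 1 the 5′ UTR of Lef1 held 7 beside its 15 coding footprints, a share of 31.8% with a wide exact interval of 13.9 to 54.9. The 5′ UTR of Trps1 held 9 and 7 in the knockout and 4 and 3 in the wild type, and that of Dlx3 held 5 and 9 against 3 and 4. Cux1 had none in either UTR in any library, and a count of 0 allows up to 3. Over the 7 tested factors, 3′ UTR footprints summed to 5 and 6 in the knockout and to 18 and 11 in the wild type, of which Gata3 gave 3 and 2 against 16 and 9. Pelota is known to act on ribosomes in 3′ UTRs, and on these factors such ribosomes were too few to compare.

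**Figure D3:**
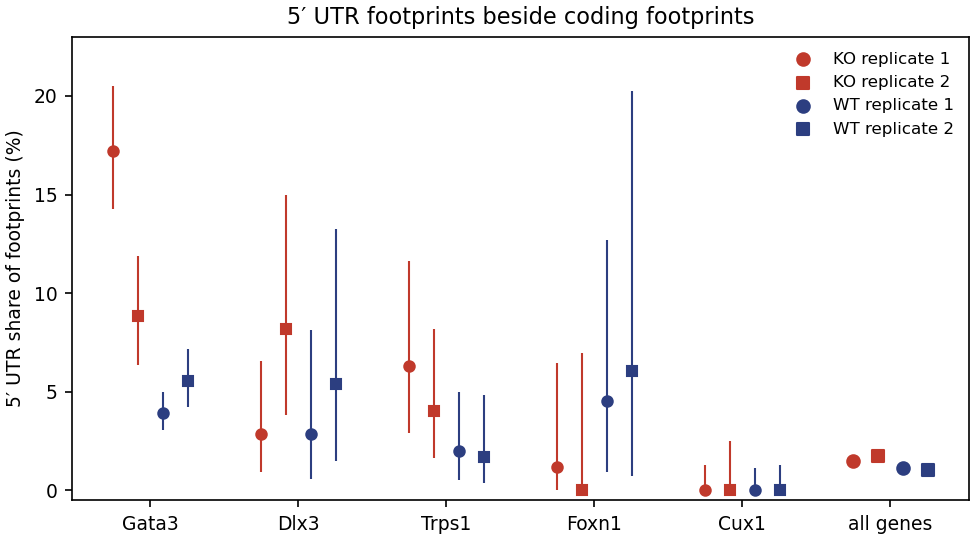
Share of 5′ UTR plus coding footprints that lay in the 5′ UTR (%), for Gata3, Dlx3, Trps1, Foxn1, Cux1 and all genes; points are single libraries (circle replicate 1, square replicate 2, red knockout, blue wild type) and lines are exact 95% binomial intervals. Gata3 in knockout replicate 1 stands highest of those drawn at 17.2%, and the intervals of Dlx3 and Foxn1 are wide.

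Structural genes of the follicle, several of them known targets of these factors, differed between the genotypes as lists. Hair shaft keratins, the structural proteins of cortex and cuticle, summed to 0.151% and 0.0542% of coding footprints in the knockout and to 0.00409% and 0.00545% in the wild type. Of the 11 in the table, only Krt81 (log2 change 3.67) and Krt86 (3.70) were listed in all 4 libraries, and both were called higher, although these near-identical paralogs may share reads. Krt31 was counted at 850 and 243 in the knockout, was not listed in wild-type replicate 1 and was at 15 in wild-type replicate 2, and Krt34 was at 884 and 339 against 24 in that library. Krt35, Krt40, Krt82 and Krt84 were listed only in the knockout. Krt35, at 545 and 41, was at least 21.6-fold higher in mean CPM than the bound of 13 counts per wild-type library allows, and Krt82, at 123 and 29, at least 5.24-fold higher. Both bounds rested on knockout replicate 1, and without it they were 3.18-fold and 2.09-fold. Krt40 and Krt84 were at least 3.455-fold and 1.63-fold higher, and at least 1.175-fold and 1.24-fold higher without that library, so their rise may be small. With unlisted counts at their bounds, 8 of the 11 were called higher, beside 2377 of 12537 genes. Beyond Krt81 and Krt86, these calls rested in part on bounds that stood in for counts.

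Keratin-associated proteins, which cross-link the hair keratins, rose in 12 of 12 tested, against 20% of all genes, with a median log2 change of 5.30. A further 23 were listed only in the knockout. A gene needed at least 10 counts in any 2 libraries to be tested. Only Krtap3-1 (18 and 13 counts, log2 change 3.45), Krtap3-2 and Krtap3-3 reached 10 in both wild-type libraries. The others of the 12, such as Krtap8-1 (5 and 2) and Krtap7-1 (5 and 4), passed only with the knockout libraries. This filter therefore largely set the count and the median. Without knockout replicate 1, 4 of 6 tested were called higher, and without knockout replicate 2, 6 of 6. Many of these genes are near-identical copies whose reads may be split or shared, and Krtap3-2 and Krtap3-3 had the same counts in every library, with a log2 change of 0.63 each, so the 12 are not separate measurements. In the inner root sheath list 7 of 8 tested rose, with a median log2 change of 3.01, led by Tchh (5.46), which encodes trichohyalin, and the keratin genes Krt74 (4.82), Krt71 (3.29) and Krt26 (3.08). Krt74, with 9 and 7 wild-type counts, also entered the test through the knockout libraries. Krt28, Padi1 and Padi3 were listed only in the knockout, and Krt72 had a log2 change of 0.83 that did not pass the test. In mean CPM, Krt28, Padi1 and Padi3 were at least 22.6-fold, 2.27-fold and 6.08-fold above their wild-type bounds. Without knockout replicate 1 these limits were 7.44-fold, 2.39-fold and 1.86-fold. Gata3, needed for that layer, fell in the same libraries. Companion layer and wound keratins rose in 4 of 5, with a median log2 change of 2.27, and Krt75, the companion layer keratin, was the one that did not pass the test.

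The step between the knockout libraries seen in Hoxc13, Msx2, Dlx3, Foxn1 and Cux1 was also present in some of these lists. The step was not particular to the rising factors, since it was 1.83-fold for Cux1. Foxn1 was 1.54-fold higher in knockout replicate 1 than in knockout replicate 2, and 1.55-fold higher in wild-type replicate 1 than in wild-type replicate 2. The summed share of hair shaft keratins was 2.79-fold higher in knockout replicate 1 than in knockout replicate 2, and that of the inner root sheath 2.04-fold higher, with 8 of 8 tested genes higher. Keratin-associated proteins went the other way, at 0.841-fold, with 5 of 12 higher in knockout replicate 1. Melanocyte markers, genes of pigment cells, summed to 0.0410% and 0.0246% in the knockout and to 0.00900% and 0.0111% in the wild type. Of 7 tested, 5 were called higher and 2 lower, beside 20% and 19.2% of all genes. The 2 lower were Mitf (log2 change −1.03) and Sox10 (−0.82), while Pmel (3.78) rose most. Dermal papilla markers summed to 0.0640% and 0.0578% in the knockout and to 0.0677% and 0.0772% in the wild type. Of 8 tested, 1 was higher and 2 lower, not far from the 20% and 19.2% of all genes. The part of follicle content in the changes of the factors was not tested.

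**Figure D4:**
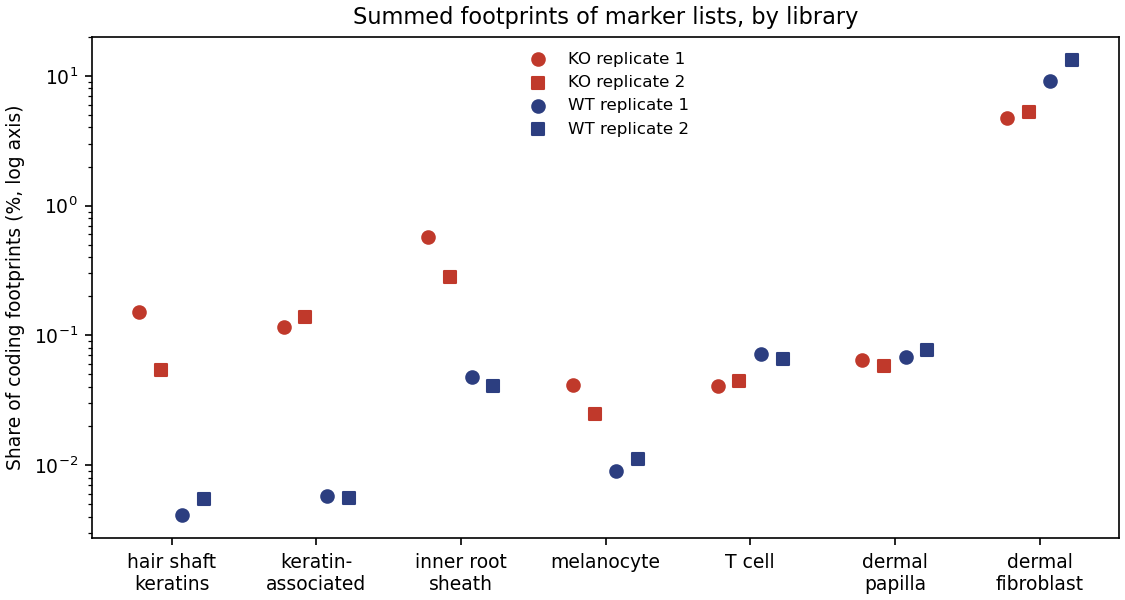
Summed coding footprints of each marker list as a percentage of all coding footprints, on a log axis, 1 point per library (circle replicate 1, square replicate 2, red knockout, blue wild type). Hair shaft, keratin-associated, inner root sheath and melanocyte lists lie higher in both knockout libraries, T cell, dermal papilla and dermal fibroblast lists lie lower, and knockout replicate 1 exceeds knockout replicate 2 in the hair shaft and inner root sheath lists.

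Promoters of 1 rising factor and of 2 hair shaft keratins are shown because HOXC13 and LEF1 are known to bind promoters of hair keratin genes. Both keratins had more footprints in the knockout libraries, and all 3 promoters hold at least 1 match. Whether either factor acts on these genes here was not tested. The sequences are the 250 bases upstream of the start in the RefSeq table of build GRCm38.p6, 5′ to 3′ toward the gene. Capitals mark, on either strand, TTTAT, a core bound by HOXC13-type homeodomains, and CTTTGA or CTTTGT, the core bound by LEF and TCF proteins.
Msx2, chr13:53472781-53473030, minus strand: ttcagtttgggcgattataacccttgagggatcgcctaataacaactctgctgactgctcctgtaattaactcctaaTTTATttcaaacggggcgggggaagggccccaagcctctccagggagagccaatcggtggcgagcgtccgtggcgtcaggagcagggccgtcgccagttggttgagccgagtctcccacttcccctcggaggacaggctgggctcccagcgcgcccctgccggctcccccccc
Krt34, chr11:100041555-100041804, minus strand: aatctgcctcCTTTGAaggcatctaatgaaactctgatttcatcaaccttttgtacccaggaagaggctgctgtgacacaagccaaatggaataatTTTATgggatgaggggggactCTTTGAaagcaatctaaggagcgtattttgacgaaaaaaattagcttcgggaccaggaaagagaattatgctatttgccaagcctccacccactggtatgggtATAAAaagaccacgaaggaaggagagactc
Krt82, chr15:101550660-101550909, minus strand: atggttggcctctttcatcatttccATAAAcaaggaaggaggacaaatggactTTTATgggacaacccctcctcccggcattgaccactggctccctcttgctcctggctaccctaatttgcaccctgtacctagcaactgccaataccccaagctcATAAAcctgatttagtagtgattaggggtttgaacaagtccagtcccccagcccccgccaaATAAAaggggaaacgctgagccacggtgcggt

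In Krt34 the CTTTGA core began at −240 and −133 from the start, and TTTAT began at −154 on the gene's strand and at −30 on the other. Krt82 held no LEF and TCF core in this window and 4 TTTAT matches, and Msx2 held a single TTTAT at −173. The promoters of Foxn1 and Krt36, which are not shown, held neither core. Over the 300-base windows of the table, which run on past the start, TTTAT was present in 8 of 9 hair shaft keratin promoters, 40 of 44 keratin-associated protein promoters and 9 of 11 inner root sheath promoters, beside 40.0% of all 32851 promoters. The 9 are not the keratins with footprints. They included Krt36 and Krt39, which had no footprint counts, and lacked Krt33a, Krt35 and the only tested genes, Krt81 and Krt86. The reverse complement of TTTAT lies within the TATA box TATAAA, which 66.7% of these hair shaft keratin promoters held, beside 13.6% of all. Counting only TTTAT outside TATAAA left 8 of 9 for the hair shaft keratins, 20 of 44 for the keratin-associated proteins and 5 of 11 for the inner root sheath, beside 33.5% of all. The LEF and TCF core was in 5 of 9, 23 of 44 and 4 of 11, beside 31.2% of all. Of the factors, 5 had entries in the table, with 8 promoters, of which 2 held TTTAT and 1 held the LEF and TCF core. A match describes the letters in the window and is not a measured binding site.

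Other transcription factors of the follicle moved in both directions. Of 29 tested, 9 were higher and 4 lower, beside 20% and 19.2% of all genes, with a median log2 change of 0.15. The largest changes were in Egr2 (1.72) and Prdm1 (1.60), a zinc-finger activator and a repressor made in differentiating skin cells, in the chromatin organiser Satb1 (−1.57) and in Gata6 (1.31), a GATA factor of the upper follicle and sebaceous duct. Lhx2, a LIM-homeodomain factor of follicle stem cells, was listed only in the wild type, at 62 and 52 counts, and was at least 4.48-fold lower in the knockout than its mean wild-type CPM, given the bound of 11 counts per library. Leaving out knockout replicate 1 or wild-type replicate 2 reduced the lower calls to 2, as did DESeq2.

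Wnt signals act upstream of Lef1, and the Wnt list also holds targets of these signals. Of 40 tested, 6 were higher and 15 lower, beside 20% and 19.2% of all genes, with a median log2 change of −0.28. By library totals alone these were 3 and 19. The secreted inhibitor Sfrp2 rose by 3.66 and Porcn, the enzyme that acylates Wnt ligands, by 1.803 on the log2 scale, and the ligands Wnt7b and Wnt5a fell by 1.22 and 1.17. Axin2, a common target of Wnt signalling, had a log2 change of −0.64 and was called lower, while Ctnnb1, which encodes beta-catenin, was at 0.05 and was not called. Wnt10b, Bcl9, Tle2 and Rspo3 were listed only in the wild type. Given their bounds, they were at least 1.37-fold, 1.16-fold, 1.43-fold and 1.86-fold lower in the knockout than their mean wild-type CPM. Such low limits do not tell a small fall from a large one.

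BMP signals act upstream of Msx2 and Dlx3, and the BMP list also holds targets of these signals. Of 14 tested, 2 were called higher and 3 lower, near the 20% and 19.2% of all genes, with a median log2 change of −0.14. Scaling by library totals alone made these 1 and 7. The ligand Bmp4 fell by 1.65 on the log2 scale, from 81 and 62 counts in the wild type to 25 and 15 in the knockout, and the BMP antagonist Grem1 fell by 1.63. Id2, which like Id4 is a target of BMP signals, was also called lower, at −0.64. Id1 (0.41) and Id3 (−0.30) were not called. The ligand Bmp7 rose by 0.77 and Id4, a target of BMP signals, by 0.69, and leaving out knockout replicate 2 or wild-type replicate 1 cut the higher calls to 1. In the Shh, Eda and Fgf list 3 of 6 tested fell, beside 19.2% of all genes, with a median log2 change of −0.67. They were the receptors Fgfr2 (−1.24), Fgfr1 (−0.81) and Smo (−0.70), and Fgf18, a ligand of the resting follicle, was listed only in the wild type at 33 and 37 counts, which makes it at least 6.17-fold lower in the knockout against the bound of 5 counts.

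**Figure D5:**
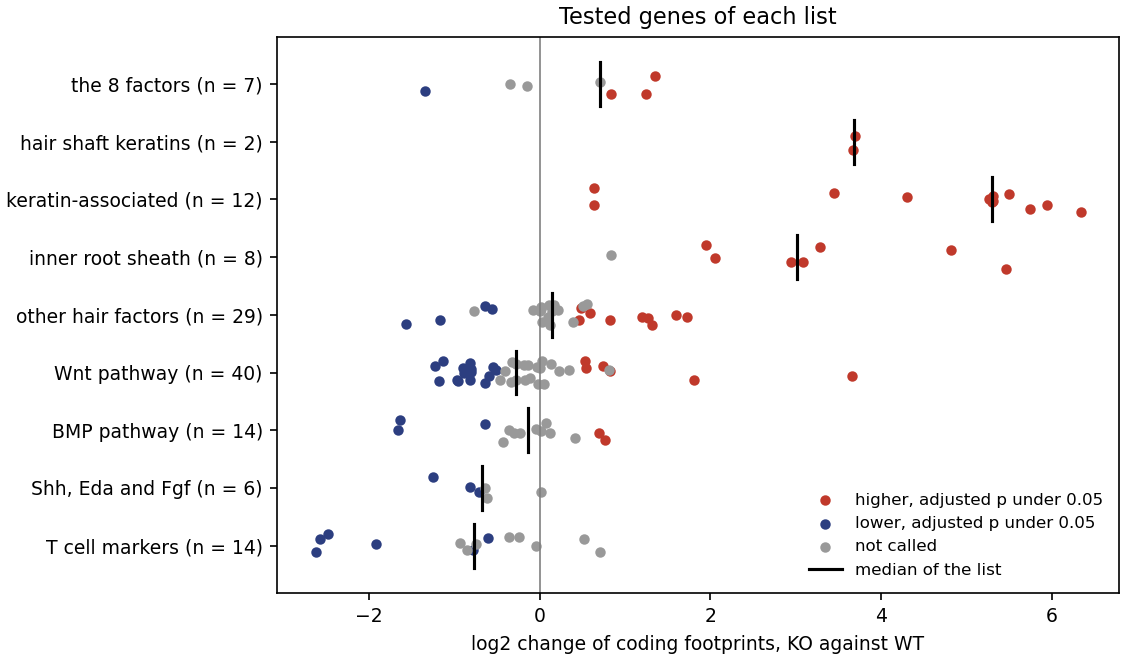
Log2 change of coding footprints, knockout against wild type, for each tested gene of each list, with red called higher, blue called lower and grey not called at an adjusted p of 0.05; black bars are list medians. The hair shaft, keratin-associated and inner root sheath genes lie to the right with medians of 3.69, 5.30 and 3.01, the 7 tested factors have a median of 0.70, and the Shh, Eda and Fgf list and the T cell markers have medians of −0.67 and −0.77. Most of the keratin-associated genes passed the count filter only with the knockout libraries.

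The genes whose pattern was most like that of each factor were found among 10117 genes with a mean of at least 20 counts, by the Euclidean distance between log2 CPM values of the 4 libraries, each gene centred on its mean. Gata3 was nearest to Ptpn21, a protein tyrosine phosphatase gene (distance 0.0120), and then to Gsta2 (0.105). Hoxc13 was nearest to LOC102308570 (0.269) and Pla2g7 (0.273), and Msx2 to the amino acid transporter gene Slc7a8 (0.198) and Npbwr1 (0.238). Dlx3 was nearest to Slco4a1 (0.130) and the retinol dehydrogenase gene Rdh10 (0.136), and Foxn1 to Rpp40 (0.0885) and Zdhhc21 (0.128). Trps1 was nearest to the zinc-finger genes Zfp953 (0.0202) and Zfp169 (0.0281), and Cux1 to Fbxl14 (0.0737). Among the factors themselves the closest pair was Foxn1 and Dlx3 (0.349), followed by Hoxc13 and Msx2 (0.577), and the farthest was Hoxc13 and Gata3 (2.68). With 4 points per gene such distances are descriptions of these libraries only.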

How the data were processed

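Ribosome footprint counts from 4 libraries, 2 knockout and 2 wild type, were taken as the authors deposited them, as raw counts over coding sequences and UTRs per UCSC transcript, with region lengths in nt per the file headers. CASAVA 1.8, TopHat2 2.0.10 and Bowtie2 2.2.6, with builds mm9 and hg19, are listed without roles per the submitters' processing notes. The 2 deposited tables are identical, so the footprint length class they cover is unknown. RNA-seq counts were not used here, so the planned test of footprints per mRNA was not run, nor was the planned comparison of protein sequences.

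No listed transcript had 0.01 footprints per nt or fewer, and unlisted values were treated as below that bound. Of 13167 rows, 4 without a symbol (0.00601% of coding footprints) were left out, and the row with most footprints stood for each repeated symbol. Genes listed in all 4 libraries with at least 10 counts in at least 2 were tested in R 4.3.3 with edgeR 4.0.16 (TMM, glmQLFit, glmQLFTest, two-sided), with Benjamini-Hochberg adjustment over 10873 genes, and the code was tested on simulated data. The biological coefficient of variation was 11.1%. Alternatives were DESeq2 1.42.0, library totals, no count filter, unlisted counts at 0 or at their bound, a replicate block, summed rows, whole-transcript counts and leaving out each library. Same-numbered libraries did not deviate together (correlation −0.00486 across genes).

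The factors and lists were chosen with earlier results of these data known. All 8 factors are named, with up to 4 called, non-overlapping genes of largest change per list and the 2 nearest patterns per factor, of which 1 is not reported here. Thy1, Il7r, Gzmb, Krt15, Col17a1, Postn, Col6a3, Krtap3-2, Krtap3-3, Krt31, Krt34, Krt72, Krt75, Cd247, Icos, Areg, Mitf, Sox10, Axin2, Ctnnb1 and the genes listed in 1 genotype were named after their values were seen, as were the promoters printed or named. So were Id1, Id2, Id3, Rora and Krtap3-1.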

Additional observations from a re-analysis of the deposited data

How the results depend on the processing

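Across 12 alternatives, DESeq2 lowered the count of genes called lower to 1170, and no other count over all genes moved by more than 1.5 times. With unlisted counts at 0, 0 factors were called higher by edgeR (3 at an unadjusted p under 0.05), while DESeq2, run only on transcripts listed in all 4 libraries, called 2. Leaving out 1 library gave 0 to 4 factors higher and 1 to 2 lower, and turned the sign of Trps1 (−0.35 to 0.037) and Cux1 (−0.85 to 0.027). In the paired fit with a replicate block, 4 factors were higher and Foxn1 had a log2 change of 0.72 (edgeR adjusted p = 0.0245), and no other factor's call changed. Of 192 counts of list genes under these alternatives, 170 stayed within 1.5 times. These include comparisons of 0 with 0, such as the lower calls of the hair shaft, keratin-associated and inner root sheath lists. The cause of these shifts was not tested, except that settings with unlisted transcripts test more genes. Depth limits Msx2 and Hoxc13, with 16 to 60 footprints per library, and Lef1, with 15 in 1 library and at most 11 in the others.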

Other observations

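Relatives of the 8 factors did not all move with them. Gata2 was counted at 47 and 37 in the knockout and at 17 and 22 in the wild type (log2 change 1.27, edgeR adjusted p = 0.00993), and Gata6 at 173 and 190 against 87 and 78 (1.31, edgeR adjusted p = 0.000286), so both rose while Gata3 fell. Dlx5, a paralog of Dlx3, was counted at 34 and 31 against 37 and 40, with a log2 change of −0.08 (edgeR adjusted p = 0.851). Among relatives of Lef1, Tcf7 was counted at 24 and 20 against 23 and 26 (0.02, edgeR adjusted p = 0.975), and Tcf7l2 at 60 and 52 against 104 and 82 (−0.55, edgeR adjusted p = 0.0399).

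The zinc-finger factor Ovol1, a repressor of differentiating epidermis and hair, was counted at 405 and 278 in the knockout and at 206 and 132 in the wild type (log2 change 1.20, edgeR adjusted p = 0.000722). Nfatc1, a factor of follicle stem cells, was counted at 142 and 181 against 462 and 360 (−1.16, edgeR adjusted p = 0.000395). Sox9, another stem cell factor, was counted at 470 and 646 against 658 and 592, with a log2 change of 0.01 (edgeR adjusted p = 0.973). Hr, the hairless corepressor of the resting follicle, was counted at 693 and 734 against 915 and 684, with a log2 change of 0.02 (edgeR adjusted p = 0.907). The genes in both paragraphs were picked with their values in view.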
